A study of Mus musculus with 8 samples.

Results

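A set of 10 genes from 3 families of calcium- or sugar-binding proteins was followed in CD4+ T cells of the neonatal mouse liver: S100a4, S100a6, S100a10, S100a11 and S100a13, the galectin genes Lgals1 and Lgals3, and the annexin genes Anxa1, Anxa2 and Anxa6. They are 10 of the 52997 gene symbols in the count table, and all 10 were among the 11490 genes with enough counts to be tested. The genes were chosen by name with the result of the PD-1 comparison of these libraries known, so their levels in PD-1+ and PD-1- cells are a description and carry no test. The age comparisons and the interaction of age and PD-1 were tested.

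The mice were C57BL/6, carried a GFP reporter of Foxp3 and lacked Aire, the regulator of self-antigen expression in the thymus. Live CD45+ TCRb+ CD4+ liver cells negative for the reporter were sorted into PD-1- and PD-1+ fractions, PD-1 being the inhibitory receptor made from Pdcd1. This gave 4 groups of 2 libraries: PD-1- and PD-1+ cells of 5-day-old mice, and PD-1- and PD-1+ cells of 10-day-old mice. All 4 groups lacked Aire, and none came from Aire-sufficient mice. The labels do not say that the libraries of a group came from separate animals. By the Xist counts given below, the 2 libraries of each 5-day group did, and at 10 days this is not known. The p-values measure only the spread between these libraries, and some of it may be technical.

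S100 proteins are small EF-hand proteins that form dimers and, for most members, expose a binding surface for other proteins when they take up calcium. Annexins bind acidic phospholipids of membranes in a calcium-dependent way, and several do so together with an S100 partner: S100A10 holds annexin A2, and S100A11 binds annexin A1. Galectins are lectins for beta-galactosides that act both inside cells and, after release by an unconventional route, on glycoproteins of the cell surface. In T cells many of these genes are known to be low in naive cells and high in activated, effector and memory cells.

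Library totals ranged from 1473216 to 3019551 counts. Pdcd1 had 1 to 5 counts in the PD-1- libraries and 564 to 1953 in the PD-1+ libraries, and Aire had 3 counts in all. Foxp3, whose reporter was used to remove cells, had 10 to 32 counts in the PD-1- and 0 to 2 in the PD-1+ libraries, and Cd8a had 1 to 16 and 2 to 40. The 10 markers of T cells summed to 6254 to 7150 CPM (library-scaled counts, as described in the methods) in PD-1- libraries and 6180 to 9947 in PD-1+ libraries. The 12 macrophage and Kupffer cell markers, cells that are rich in several of these proteins, summed to 35.6 to 89.7 CPM in the PD-1- libraries and 53.0 to 71.2 CPM in the PD-1+ ones, and 10 neutrophil markers to at most 2.84 and 6.41 CPM, with Csf3r at 0 in every library. Cd68 was the highest of the macrophage markers at 10 days and was lower in PD-1+ cells over both ages (log2 difference -0.94), whereas Cd5l was higher (2.48), and at 10 days Cd5l had 0 CPM in both PD-1- libraries against 11.8 and 11.2 CPM in PD-1+ libraries. At 10 days C1qb and Marco were called higher in PD-1+ cells as well, and the sums were 40.5 to 48.8 against 64.7 to 71.2 CPM. The summed level of 8 dendritic cell markers (10.1 to 23.4 against 32.4 to 74.8 CPM) was higher in every PD-1+ library, with Xcr1 (19.6 to 49.5 CPM there) the 1 marker called over both ages out of 3 tested. Xcr1 had 0 to 1.62 CPM in PD-1- libraries and was most of the sum in each PD-1+ library. The other dendritic markers did not all go 1 way. Means in PD-1- and PD-1+ libraries were 0.892 and 5.69 CPM for Itgax, 9.07 and 9.68 for Zbtb46, and 2.07 and 0.913 for Flt3. The sum of 8 hepatocyte markers was also higher in every PD-1+ library (10.2 to 19.4 against 28.2 to 77.2 CPM), and Alb, Apoa1 and Ttr were called out of 4 tested. Their part in the levels given here was not tested. Both libraries of 5-day replicate 3 held 1 and 5 counts of Xist, the RNA of the inactive X chromosome, against 698 to 1842 in the other 6, so the 2 libraries of each 5-day group came from mice of different sex, which the 10-day groups did not. The age results of the 10 genes were also obtained without that replicate.

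As a share of all counts, the 10 genes made up 0.126 and 0.149% of the 5-day PD-1- libraries, 0.731 and 0.724% of the 5-day PD-1+ libraries, 0.123 and 0.116% of the 10-day PD-1- libraries and 0.454 and 0.388% of the 10-day PD-1+ libraries. The share was therefore higher in every PD-1+ library, and within PD-1+ cells it was higher at 5 than at 10 days. In bulk libraries, more cells that express a gene and more RNA per cell cannot be told apart.

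**Figure D1:**
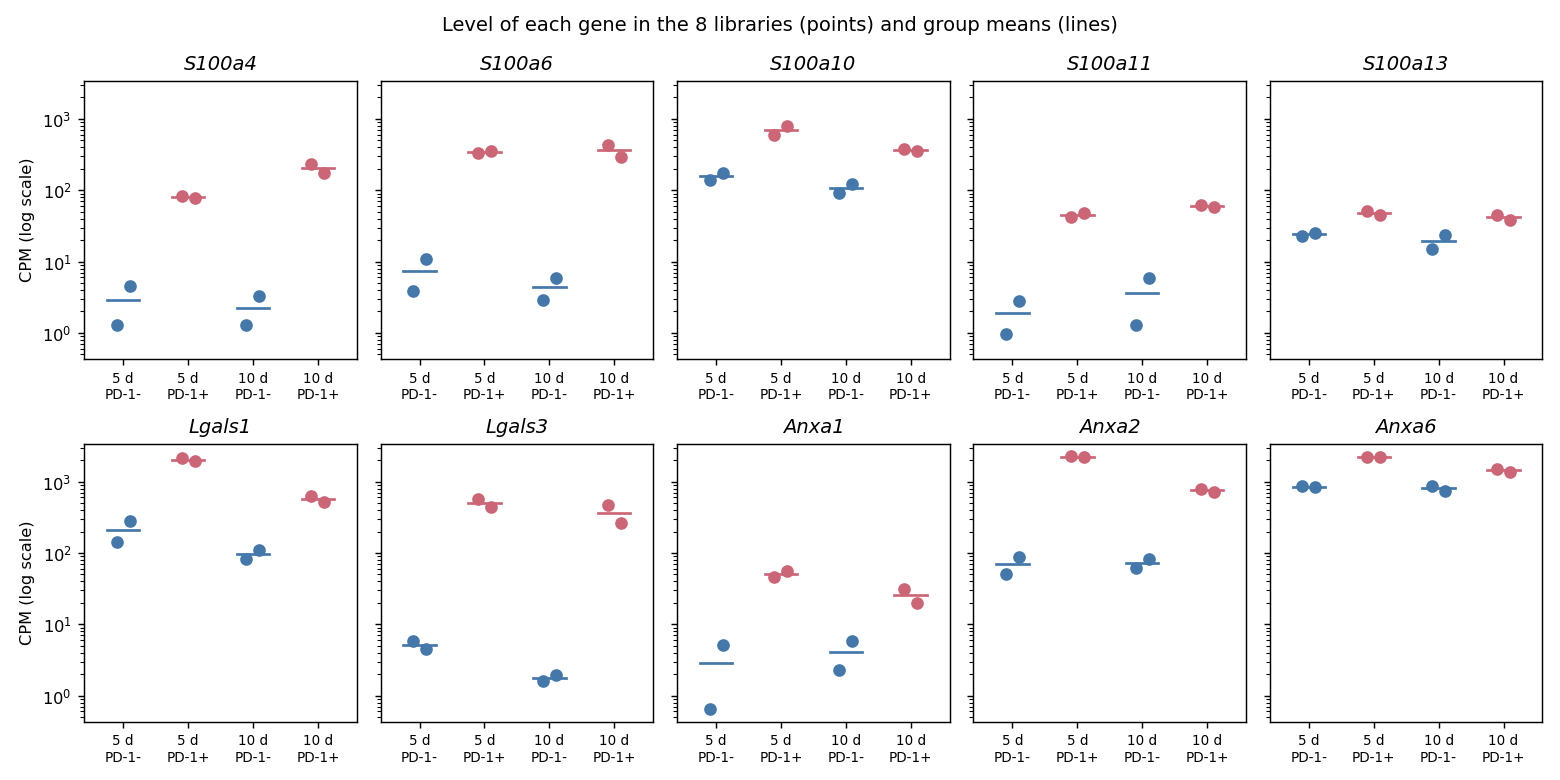
Level of each of the 10 genes in CPM on a log scale (vertical axis) in the 4 groups (horizontal axis); each point is 1 library and each line the mean of a group. All 4 PD-1+ libraries lie above all 4 PD-1- libraries for every gene, and the PD-1+ points of S100a4 and S100a11 are higher at 10 than at 5 days while those of Lgals1, Anxa1, Anxa2, Anxa6 and S100a10 are lower.

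Positions are on the mouse build GRCm38 with GENCODE M21 gene models, and each gene is protein-coding. S100a13 (chr3:90514435-90524581), S100a4 (chr3:90603771-90606045) and S100a6 (chr3:90612882-90624181) lie in 1 cluster of S100 genes, and S100a11 (chr3:93520488-93526287) and S100a10 (chr3:93555080-93564643) lie further along the same chromosome. The others are Lgals1 (chr15:78926725-78930465), Lgals3 (chr14:47367751-47386160), Anxa1 (chr19:20373428-20390944), Anxa2 (chr9:69453620-69491795) and Anxa6 (chr11:54979108-55033445). Anxa1 and Anxa6 are on the minus strand and the other 8 on the plus strand. The predicted gene Gm42674, on the same strand, shares 302 exon bases with S100a4, 51.7% of its exon length, and was listed with 0 counts in all 8 libraries. How the counting treated reads shared by 2 genes is not stated in the labels, and the level of S100a4 may be understated in every library. Anxa2 shares 98 exon bases (2.6%) with an antisense transcript, Gm16144, that had 0 to 10 counts.

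The 250 bases upstream of the RefSeq start are shown because these genes had all been chosen as higher in PD-1+ cells. RefSeq windows on GRCm38.p6 matched 7 of the 10 genes, all but S100a10, Lgals1 and Anxa6. The S100a11 window is not shown, although the PD-1 log2 difference of that gene (4.47) was above that of Anxa2 (4.21). The 4 windows below belong to S100a4, S100a6, Lgals3 and Anxa2, whose PD-1 differences were the largest within their families. They are chr3:90603520-90603769 for S100a4, chr3:90612644-90612893 for S100a6, chr14:47373610-47373859 for Lgals3 and chr9:69453433-69453682 for Anxa2, all on the plus strand. They are written 5' to 3' with capitals marking a TATA box (TATAAA), an AP-1 motif (TGANTCA) or a GC box (GGGCGG), each searched on both strands. The RefSeq start does not always match the GENCODE model: the whole Lgals3 window lies inside the GENCODE gene, and the S100a6 and Anxa2 windows run past the GENCODE start.
S100a4: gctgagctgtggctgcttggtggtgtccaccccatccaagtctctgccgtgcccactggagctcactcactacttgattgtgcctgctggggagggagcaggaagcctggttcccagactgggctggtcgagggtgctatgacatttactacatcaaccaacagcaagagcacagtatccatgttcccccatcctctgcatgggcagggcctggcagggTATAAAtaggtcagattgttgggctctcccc
S100a6: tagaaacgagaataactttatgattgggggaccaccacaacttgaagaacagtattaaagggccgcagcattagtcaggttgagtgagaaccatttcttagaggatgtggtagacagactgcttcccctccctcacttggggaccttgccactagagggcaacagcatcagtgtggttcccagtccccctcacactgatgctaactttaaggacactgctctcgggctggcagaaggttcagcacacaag
Lgals3: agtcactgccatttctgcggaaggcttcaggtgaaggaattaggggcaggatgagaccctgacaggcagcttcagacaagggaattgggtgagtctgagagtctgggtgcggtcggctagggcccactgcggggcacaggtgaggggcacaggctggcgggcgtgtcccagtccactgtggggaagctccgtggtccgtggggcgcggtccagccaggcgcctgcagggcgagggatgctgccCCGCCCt
Anxa2: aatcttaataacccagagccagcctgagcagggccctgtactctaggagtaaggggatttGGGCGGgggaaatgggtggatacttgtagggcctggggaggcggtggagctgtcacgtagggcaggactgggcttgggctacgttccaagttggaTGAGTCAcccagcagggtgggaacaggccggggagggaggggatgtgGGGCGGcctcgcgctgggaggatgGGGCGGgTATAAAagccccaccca

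The TATA box letters were present in 3 of the 7 windows (S100a4, Anxa1 and Anxa2) and in 12.4% of 32851 windows of the same length. In S100a4 they lay 31 to 26 bases before the start and in Anxa2 17 to 12 bases before it. The AP-1 letters were present in 2 of 7 windows, at 1 place in Anxa2 and 2 places in S100a11, against 6.75% of all windows. GC boxes were present in 3 of 7 (S100a11, Anxa2 and Lgals3) against 32.7%. S100a6 held none of the 3 motifs in its window. The GC content was 57.2% for S100a4, 50.0% for S100a6, 66.0% for Lgals3 and 62.4% for Anxa2, with a median of 52.4% over all windows. No motif was therefore shared by all 7 windows, and a match is a description of letters only.

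The largest PD-1 difference belonged to Lgals3, which encodes galectin-3, the chimeric galectin that can form lattices on glycoproteins. Its level was 5.83 and 4.54 CPM in 5-day PD-1- cells, 568 and 446 CPM in 5-day PD-1+ cells, 1.62 and 1.95 CPM in 10-day PD-1- cells and 464 and 265 CPM in 10-day PD-1+ cells. Every PD-1+ library was far above every PD-1- library, in which the gene had only 3 to 18 counts. The fitted log2 difference over both ages was 6.96 ± 0.28 (SE, 4 libraries a side), and the ratio of the mean CPM was 125.

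Lgals1 encodes galectin-1, a dimeric galectin that T cells make on activation. It had 144 and 279 CPM in 5-day PD-1- cells, 2135 and 1949 CPM in 5-day PD-1+ cells, 83.6 and 110 CPM in 10-day PD-1- cells, and 633 and 516 CPM in 10-day PD-1+ cells. Unlike Lgals3, it was measured well above the lowest counts in PD-1- cells. The log2 difference was 2.94 ± 0.23, and the ratio of the means was 8.49.

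Among the S100 genes, S100a6 (calcyclin, which binds the CACYBP protein) and S100a4 (which binds non-muscle myosin heavy chain) stood out. S100a6 had 3.89 and 10.8 CPM in 5-day PD-1- cells, 338 and 356 CPM in 5-day PD-1+ cells, 2.91 and 5.85 CPM in 10-day PD-1- cells, and 434 and 293 CPM in 10-day PD-1+ cells. For S100a4 the levels in the same order were 1.30 and 4.54, 84.4 and 77.8, 1.30 and 3.25, and 236 and 174 CPM. Both were near the lowest measurable level in PD-1- cells, where S100a4 had 4 to 8 counts a library. Their log2 differences were 6.04 ± 0.30 for S100a6 and 5.85 ± 0.36 for S100a4.

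S100a11, the annexin A1 partner, followed the same form at a lower level: 0.972 and 2.84 CPM in 5-day PD-1- cells, 41.7 and 47.3 CPM in 5-day PD-1+ cells, 1.30 and 5.85 CPM in 10-day PD-1- cells, and 62.3 and 59.0 CPM in 10-day PD-1+ cells. Its log2 difference was 4.47 ± 0.36. S100a10, which unlike most of its family does not depend on calcium, was already expressed in PD-1- cells. Its levels were 142 and 174, 597 and 787, 91.0 and 122, and 384 and 352 CPM in the same order of groups, a log2 difference of 1.97 ± 0.16. S100a13, which takes part in the release of proteins without a signal peptide, had the smallest difference of the 10. Its PD-1- libraries ranged from 15.2 to 25.6 CPM and its PD-1+ libraries from 38.3 to 50.4 CPM, a log2 difference of 1.05 ± 0.21.

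Anxa2, whose product pairs with S100A10 at membranes, showed the largest difference of the annexins. It had 50.9 and 88.6 CPM in 5-day PD-1- cells, 2261 and 2213 CPM in 5-day PD-1+ cells, 61.9 and 83.3 CPM in 10-day PD-1- cells, and 797 and 712 CPM in 10-day PD-1+ cells. The PD-1+ libraries of the 2 ages were far apart from each other, while the PD-1- libraries overlapped. The log2 difference over both ages was 4.21 ± 0.39.

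Anxa1 encodes annexin A1, a ligand of formyl peptide receptors when released. It was scarce in PD-1- cells, with 0.648 and 5.11 CPM at 5 days and 2.27 and 5.85 CPM at 10 days. In PD-1+ cells it had 46.3 and 55.9 CPM at 5 days and 31.7 and 20.0 CPM at 10 days. Its log2 difference was 3.57 ± 0.48, resting on 2 to 9 counts in each PD-1- library. Anxa6, an annexin with a doubled set of repeats, was abundant throughout, with 863 and 844, 2210 and 2199, 869 and 747, and 1510 and 1372 CPM in the same order of groups, and its log2 difference was 1.10 ± 0.14.

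All 10 genes were higher in each of the 4 PD-1+ libraries than in any PD-1- library, and 10 of 10 were called by the rule used for all genes (edgeR adjusted p below 0.05), over both ages and at each age, which is a description here. Of all tested genes, 41.4% were called in this comparison, 21.9% as higher and 19.6% as lower, and 34.3% were called at 5 days and 29.3% at 10 days. Nothing is read from the count of 10, since the genes were selected on this contrast. The median log2 difference of the 10 was 3.89, beside -0.01 over all tested genes.

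Per kilobase of annotated exon, which allows levels to be compared between genes, the order in 5-day PD-1+ cells began with Lgals1 at 2261 ± 146 CPM per kb (SD, n = 2). Anxa6 at 752 ± 2.67, Anxa2 at 599 ± 9.03 and S100a10 at 571 ± 111 CPM per kb followed, and the last 2 did not differ beyond their spread. Lgals3 (273 ± 46.4) and S100a6 (254 ± 9.07) also overlapped, and S100a4 (139), S100a11 (87.0), S100a13 (66.3) and Anxa1 (17.6) came below them. In 10-day PD-1+ cells Lgals1 (636 ± 91.6) and Anxa6 (492 ± 33.2) were still first. S100a4 (351 ± 74.9) came next, overlapping with S100a10 (304 ± 18.6) and S100a6 (266 ± 73.0), and Anxa2 stood at 202 ± 16.2. In PD-1- cells only Anxa6, Lgals1 and S100a10 stood above the rest, with means of 291, 234 and 130 at 5 days and 276, 107 and 88.0 at 10 days. The libraries are primed with oligo(dT), so a scale per length is approximate.

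Between 5 and 10 days the PD-1+ cells changed in 5 of the 10 genes, and in both directions. S100a4 rose, and S100a10, Lgals1, Anxa2 and Anxa6 fell, each at an adjusted p below 0.05 in edgeR, where 14.4% of all tested genes were called. The median log2 difference of the 10 was -0.55, beside 0.05 over all tested genes. Both 10-day libraries lay above both 5-day ones for S100a4 and S100a11, and below them for S100a10, Lgals1, Anxa1, Anxa2 and Anxa6. The share of all tested genes that separate in this way was not obtained, so nothing is read from how many did. Summed markers of cell types also differed between the ages in PD-1+ cells, without overlap. From 5 to 10 days those of T cells went from 6180 to 6492 up to 8248 to 9947 CPM, and of dendritic cells from 32.4 to 32.5 up to 58.3 to 74.8 CPM. Most of the dendritic sum was Xcr1, at 24.7 and 19.6, then 49.5 and 35.1 CPM, which was not called with age (edgeR adjusted p = 0.0964). Itgax was also higher in both 10-day libraries, and Flt3 and Clec9a were lower. The macrophage sum went from 53.0 to 54.4 up to 64.7 to 71.2 CPM, but single markers went both ways. Cd68, Cd5l, Clec4f and C1qc were higher in both 10-day libraries, and Marco, C1qb and Adgre1 were lower. The sum of NK and innate lymphoid cells went from 83.1 to 119.9 down to 21.0 to 56.6 CPM. Most of it was Gzma, at 119 and 79.3, then 15.7 and 52.0 CPM, which was not called with age (edgeR adjusted p = 0.416). Each other marker of that list was at most 3.51 CPM there. The part of these cell types in the age results was not tested.

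The rise of S100a4, from 81.1 ± 4.66 to 205 ± 43.7 CPM (SD, n = 2), was a log2 change of 1.34 ± 0.26 (edgeR adjusted p = 0.00325). Its cluster neighbour S100a6 did not move with it: the log2 difference was 0.07 ± 0.27 (edgeR adjusted p = 0.902), and the 10-day libraries, at 434 and 293 CPM, lay on either side of the 5-day ones. S100a11 (0.45 ± 0.35, adjusted p = 0.442) and S100a13 (-0.19 ± 0.28, adjusted p = 0.707) did not pass the edgeR test either.

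Anxa2 fell from 2237 ± 33.7 to 755 ± 60.4 CPM, a log2 change of -1.57 ± 0.21 (edgeR adjusted p = 0.000608). The gene of its membrane partner, S100a10, fell from 692 ± 135 to 368 ± 22.5 CPM, a log2 change of -0.91 ± 0.18 (edgeR adjusted p = 0.00290). Both 10-day libraries were below both 5-day libraries for each of the 2 genes. Anxa6 fell less, from 2205 ± 7.83 to 1441 ± 97.2 CPM (log2 change -0.61 ± 0.13, edgeR adjusted p = 0.00404). Anxa1 had lower values at 10 days that did not pass the test (-0.98 ± 0.45, edgeR adjusted p = 0.169), but passed when only the PD-1+ libraries were fitted (-0.99, adjusted p = 0.0368).

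Lgals1 fell the most of the 10, from 2042 ± 132 to 574 ± 82.7 CPM, a log2 change of -1.83 ± 0.30 (edgeR adjusted p = 0.00718). The call was lost when 10-day PD-1+ replicate 1 (-1.99, adjusted p = 0.0642) or replicate 2 (-1.69, adjusted p = 0.0723) was left out, and adjusted p ranged from 2.05e-27 to 0.0723 over 14 alternative edgeR and DESeq2 settings. Lgals3 did not pass (-0.48 ± 0.22, edgeR adjusted p = 0.183), with 568 and 446 CPM at 5 days and 464 and 265 CPM at 10 days. It passed without 10-day PD-1+ replicate 1 (-0.94, adjusted p = 0.0104). For S100a4, S100a10, Anxa2 and Anxa6 the call held under each of the 14 settings, with the highest adjusted p at 0.0494, 0.0435, 0.00848 and 0.0404.

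The 6 libraries with Xist counts of 698 or more gave the same 5 calls in PD-1+ cells. Without both libraries of 5-day replicate 3 the log2 changes in edgeR were 1.26 for S100a4 (adjusted p = 0.00950), -0.71 for S100a10 (0.0330), -1.91 for Lgals1 (8.59e-07), -1.60 for Anxa2 (7.19e-06) and -0.64 for Anxa6 (0.0339). With 1 library left in each 5-day group, that library is assumed to vary like those of the other groups.

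**Figure D2:**
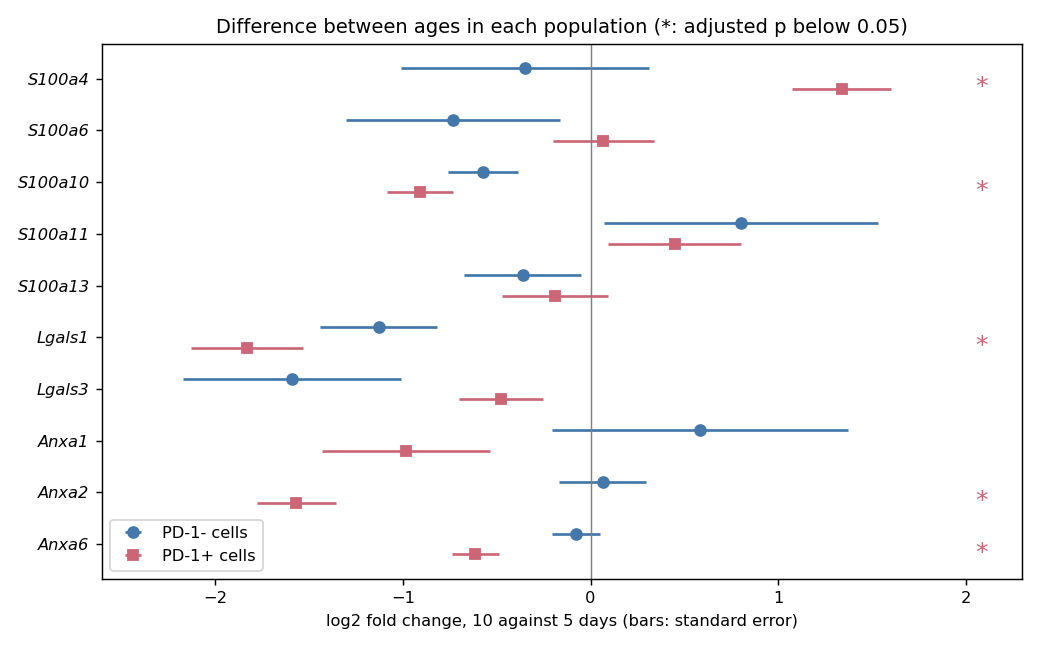
Log2 fold change of 10 against 5 days for each gene (horizontal axis; bars are standard errors), in PD-1- cells (circles) and PD-1+ cells (squares); an asterisk at the right edge, in the colour of the population, marks an adjusted p below 0.05. The PD-1+ squares of 5 genes have an asterisk, 1 square above 0 and 4 below it, and no PD-1- circle has one.

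In PD-1- cells none of the 10 genes was called between the ages by edgeR, where 0.27% of all tested genes were called. An unadjusted p below 0.05 was found for S100a10 (log2 difference -0.57 ± 0.19, edgeR adjusted p = 0.256), Lgals1 (-1.13 ± 0.31, adjusted p = 0.256) and Lgals3 (-1.59 ± 0.58, adjusted p = 0.338). Each had both 10-day libraries below both 5-day libraries. The share of all tested genes with either trait was not obtained, so nothing is read from their number. Some macrophage markers were also lower at 10 days in PD-1- cells. Marco went from 4.54 and 21.6 to 0 and 0.650 CPM, and C1qb from 2.59 and 9.65 to 0 and 0 CPM. For Cd5l the levels were 3.24 and 5.68, then 0 and 0 CPM. Cd68 was higher, at 19.8 and 25.6, then 36.6 and 44.9 CPM, and the summed macrophage markers overlapped. No tested macrophage marker was called here, and their part in these age results was not tested. Lgals1 was called lower by DESeq2 (-1.12, adjusted p = 0.00344) and by edgeR without the filter on low counts or without 5-day PD-1- replicate 2. The other 7 of the 10 genes differed by between -0.73 (S100a6) and 0.80 (S100a11) on the log2 scale, with adjusted p from 0.723 to 0.964 in edgeR. For S100a4, S100a11, Lgals3 and Anxa1, with 2 to 18 counts in each PD-1- library, only a large difference would have been detectable at this depth.

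The interaction, that is the PD-1 difference at 10 days minus that at 5 days, was called for Anxa2 alone among the 10, where 2.12% of all tested genes were called. The log2 difference of Anxa2 between PD-1+ and PD-1- cells was 5.03 ± 0.25 at 5 days and 3.39 ± 0.23 at 10 days, an interaction of -1.63 ± 0.31 (edgeR adjusted p = 0.0254). The Anxa2 level in PD-1- cells did not separate the ages, at 50.9 and 88.6 against 61.9 and 83.3 CPM. The call was lost in edgeR without 5-day PD-1+ replicate 2 (-1.65, adjusted p = 0.0814) or 3 (-1.68, adjusted p = 0.0604), 10-day PD-1- replicate 2 (-1.42, adjusted p = 0.0833), or 10-day PD-1+ replicate 1 (-1.72, adjusted p = 0.0730) or 2 (-1.55, adjusted p = 0.0611). Over the 14 settings the interaction ranged from -2.11 to -1.26 and the adjusted p from 1.25e-09 to 0.0833.

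The other 9 genes were not called for the interaction. S100a4 had PD-1 differences of 4.97 ± 0.40 at 5 days and 6.65 ± 0.41 at 10 days (interaction 1.69 ± 0.72, edgeR adjusted p = 0.274). Without both libraries of 5-day replicate 3 its 5-day difference was 6.00 and its interaction 0.65, and the interaction was 0.72 without 5-day PD-1- replicate 3 and 0.99 without 10-day PD-1- replicate 1. Lgals3 had 6.56 ± 0.33 and 7.67 ± 0.38 (interaction 1.11 ± 0.63, adjusted p = 0.439), both with PD-1- levels near the lowest counts. Lgals1 (-0.70 ± 0.42, adjusted p = 0.499) passed in edgeR only without 5-day PD-1- replicate 3 (-1.27, adjusted p = 0.00660) or without both libraries of that replicate number at 5 days (-1.34, adjusted p = 0.0210). That S100a4 rose and Anxa6 fell with age in PD-1+ and neither was called in PD-1- cells does not show a difference between the populations, since their interactions were not called (Anxa6: -0.53 ± 0.18, edgeR adjusted p = 0.141).

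Of the genes around the cluster on chromosome 3, S100a4, S100a6 and S100a13 were the only ones inside it with enough counts to test, among 13 protein-coding genes from S100a1 to S100a9. Over all 8 libraries S100a6 had 3504 counts, S100a4 1505 and S100a13 625. S100a5, which lies between S100a4 and S100a6, had 1 count, and S100a3, on the other side of S100a4, had 17. S100a8 and S100a9, which encode the calprotectin subunits of neutrophils and monocytes, had 1 and 2 counts. High counts were therefore limited to single genes of the cluster and not spread over neighbouring ones. In the flanking 200 kb on both sides, a window chosen after values had been seen, 9 protein-coding genes are annotated and 5 were tested: none was higher in PD-1+ cells, and 2 were lower, Gatad2b (log2 difference -1.06 ± 0.18, edgeR adjusted p = 0.000353) and Chtop (-0.33 ± 0.12, edgeR adjusted p = 0.0413).

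**Figure D3:**
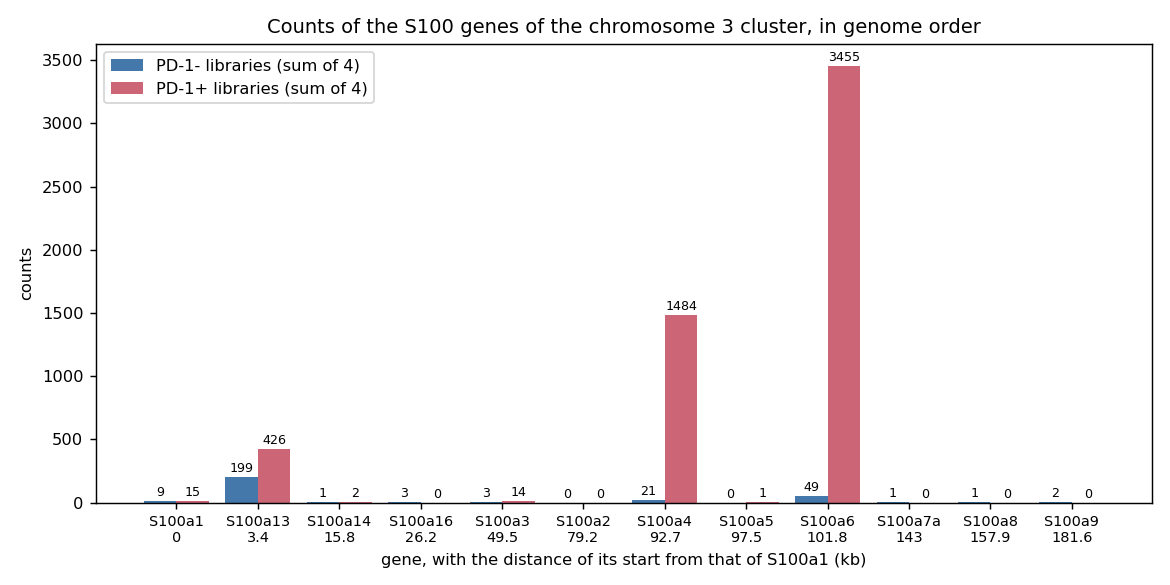
Counts (vertical axis) of the S100 genes of the chromosome 3 cluster, summed over the 4 PD-1- and the 4 PD-1+ libraries, in genome order (horizontal axis, with the distance of each gene's start from that of S100a1 in kb). In PD-1+ libraries S100a6 (3455 counts) and S100a4 (1484) have the tallest bars, ahead of S100a13 (426), while in PD-1- libraries S100a13 (199) is ahead of S100a6 (49) and S100a4 (21).

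The other genes of the 3 families were those left after the 10 had been chosen on the PD-1 contrast, so their count is no sample of the families. Their PD-1 p-values are likewise a description. Over all tested genes 41.4% were called in this comparison. None of the 11 other S100 genes listed had enough counts to test, and S100a2, outside that list, had 0 counts. Of 7 other galectin genes with a row of counts, 5 were tested: Lgals7 (log2 difference 3.54 ± 0.72, edgeR adjusted p = 0.00114, 0.568 against 8.99 CPM) and the galectin-like gene Lgalsl (1.81 ± 0.38, adjusted p = 0.00153) were higher in PD-1+ cells, while Lgals4 and Lgals8 were not called. Lgals7 had 0 to 3 counts in each PD-1- library and was kept for testing through its PD-1+ libraries. At 10 days alone it was not called (edgeR adjusted p = 0.106). Lgals9, which encodes a ligand described for TIM-3, was slightly lower in PD-1+ cells, at 160 ± 14.2 against 203 ± 16.6 CPM (SD, n = 4; log2 difference -0.35 ± 0.13, edgeR adjusted p = 0.0374). It was called at neither age alone (edgeR adjusted p = 0.172 at 5 days and 0.0660 at 10 days).

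Among 9 other annexin genes 4 were tested and 3 were higher in PD-1+ cells. Anxa5, whose product is used as a probe for exposed phosphatidylserine, had 245 ± 15.0 against 105 ± 5.41 CPM (log2 difference 1.22 ± 0.12, edgeR adjusted p = 2.41e-06). Anxa4 (3.75 ± 0.46, adjusted p = 1.38e-05) and Anxa7 (0.84 ± 0.18, adjusted p = 0.00157) were also higher in edgeR, and Anxa11 (0.19) was not called. Anxa4 had 0 to 11 counts in each PD-1- library and was kept for testing through its PD-1+ libraries. None of these other galectin and annexin genes was called between the ages in either population or for the interaction. Lgals7 came close to a call in PD-1+ cells, with 16.5 and 12.4 CPM at 5 days and 3.56 and 3.51 CPM at 10 days. Its log2 change was -2.01 ± 0.66 (edgeR adjusted p = 0.0518). The changes of Lgals1, Anxa2 and Anxa6 with age were thus not shared, as calls, by Lgals7, Anxa4, Anxa5 and Anxa7. A difference between these genes was not tested.

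**Figure D4:**
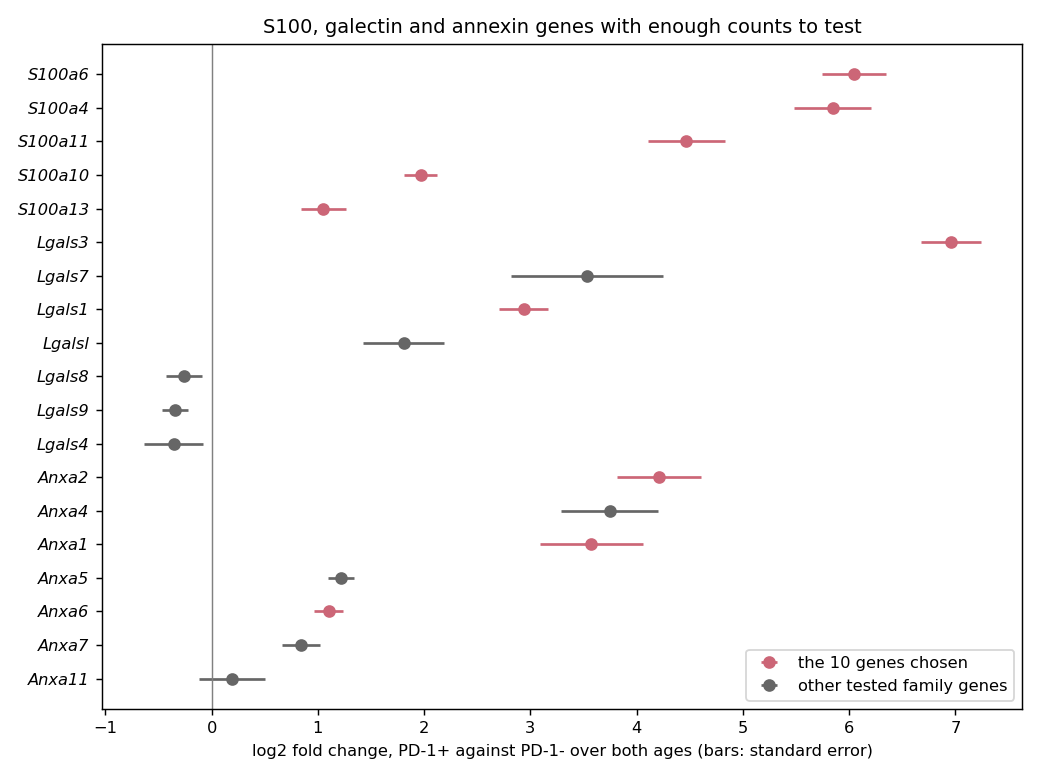
Log2 fold change of PD-1+ against PD-1- cells over both ages (horizontal axis; bars are standard errors) for every S100, galectin and annexin gene with enough counts to test; red points are the 10 genes chosen and grey points the 9 others. The red points run from 1.05 (S100a13) to 6.96 (Lgals3), and 3 grey galectin points, Lgals4, Lgals8 and Lgals9, lie below 0.

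Of 8 genes for binding partners and receptors 6 were tested: 2 were higher in PD-1+ cells, 1 was lower and 3 were not called. Over all tested genes 41.4% were called, and nothing is read from the count in this list. It was chosen with earlier results of these data known, so its PD-1 p-values are a description. Ahnak, whose very large product is anchored at the membrane by annexin A2 and S100A10, had 727 ± 127 against 81.4 ± 8.71 CPM (log2 difference 3.15 ± 0.15, edgeR adjusted p = 1.40e-09). Cacybp, the S100A6-binding gene, was higher by 0.57 ± 0.15 (edgeR adjusted p = 0.00698) and fell with age in PD-1+ cells (-0.75 ± 0.17, adjusted p = 0.00679). Its PD-1 difference was called at 5 days (0.85 ± 0.17, edgeR adjusted p = 0.00094) and not at 10 days (0.28 ± 0.17, adjusted p = 0.236). Ager, the gene of the RAGE receptor for extracellular S100 proteins, was lower in PD-1+ cells (-1.79 ± 0.37, edgeR adjusted p = 0.00133) at a level of 4.02 against 13.6 CPM. Myh9, the myosin heavy chain that S100A4 binds, showed a log2 difference of 0.01 ± 0.12. The formyl peptide receptor genes Fpr1 and Fpr2 had too few counts to test.

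Galectin binding depends on how surface glycans are built. Of 12 tested glycan enzyme genes, 2 were higher in PD-1+ cells, 2 lower and 8 not called, where 41.4% of all tested genes were called. Nothing is read from this count. The list was chosen with earlier results of these data known, so its PD-1 p-values are a description. Gcnt1, which starts core 2 branches on O-glycans, was higher (16.8 against 0.954 CPM; log2 difference 4.23 ± 0.68, edgeR adjusted p = 0.000251), as was Man2a1 (0.63 ± 0.20, adjusted p = 0.0190), and Man1a (-0.69 ± 0.19, adjusted p = 0.00897) and Mgat4a (-0.75 ± 0.24, adjusted p = 0.0223) were lower. Gcnt1 had 0 to 4 counts in each PD-1- library and was kept for testing through its PD-1+ libraries. At a single age Man2a1 and Mgat4a were called only at 10 days and Man1a only at 5 days. St6gal1, whose enzyme adds the alpha-2,6-linked sialic acid that blocks galectin-1 binding, was the 1 enzyme called with age. It had 223 and 238 CPM in 5-day PD-1- cells, 197 and 190 CPM in 5-day PD-1+ cells, 218 and 185 CPM in 10-day PD-1- cells, and 36.0 and 56.6 CPM in 10-day PD-1+ cells. Only the 10-day PD-1+ libraries were low: the age change in PD-1+ cells was -2.06 ± 0.20 (edgeR adjusted p = 6.58e-06) and the interaction -1.87 ± 0.27 (edgeR adjusted p = 0.00148).

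Of 6 genes for glycoproteins described as galectin counter-receptors, 4 were higher in PD-1+ cells, 1 was lower and Ptprc (CD45) was not called. Over all tested genes 21.9% were called higher and 19.6% lower. The list was chosen with earlier results of these data known, so nothing is read from its count and its PD-1 p-values are a description. Spn (CD43) was higher by 0.63 ± 0.14 (edgeR adjusted p = 0.00214) and Itgb1 by 5.47 ± 0.58 (adjusted p = 0.000632), while Cd7 was lower (-1.60 ± 0.25, adjusted p = 0.000139). Lag3 was higher by 6.88 ± 0.55 and rose with age in PD-1+ cells (3.57 ± 0.30, edgeR adjusted p = 0.000120). Havcr2, the gene of TIM-3, averaged 0.324 CPM over the PD-1- libraries and 116 CPM over the PD-1+ libraries.

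The genes most like 3 of the 10 in their pattern over the 8 libraries were sought among 7246 well-expressed genes. They were ranked by Pearson's r of log2 CPM, which does not measure the size of a difference. The top genes were Ripk3 (0.998), Rbpj (0.993) and Nrp1 (0.991) for S100a4, Txn1 (0.997), Pclaf (0.995) and Sdhb (0.994) for Lgals1, and Rxra (0.997), AI506816 (0.995) and Hpf1 (0.995) for Anxa6. Their PD-1 log2 differences were 0.67, 2.29 and 5.31 beside 5.85 for S100a4, and 1.84, 1.81 and 1.03 beside 2.94 for Lgals1. For the genes like Anxa6 they were 2.24, 1.56 and 1.06 beside 1.10. Among the 10 genes themselves r ran from 0.821, between S100a4 and Lgals1, to 0.986, between S100a6 and Lgals3. All of these values share the same 8 libraries and the same split by PD-1 and are given as a description.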

How the data were processed

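Polyadenylated RNA of 1000 sorted cells a library was amplified and sequenced, per the labels' protocols. The authors deposited raw counts per gene symbol in 1 table, its 8 columns matched to the samples by title (0 unmatched). The submitters' processing notes name STAR 2.5.4, featureCounts and mm10. Which annotation and strand setting were used, and how reads shared by genes were treated, is not given in the sources used here.

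Genes were kept by filterByExpr given the 4 groups (11490 of 52997), scaled by TMM and tested with robust quasi-likelihood fits of edgeR 4.0.16 (R 4.3.3). The PD-1 difference over both ages came from an additive model with age, and the other 5 comparisons from a model of the 4 groups. Benjamini-Hochberg adjustment covered all tested genes, with calls below 0.05. A standard error is the size of the log2 change over the root of its F value. For CPM, each count was divided by the library's sum over tested genes, corrected by its TMM factor, so precision follows the library totals. Likeness used log2 CPM with a prior count of 2 among genes with a mean of at least 4. The procedure was tested on simulated data. Alternatives were upper-quartile and RLE scaling, no filter, DESeq2 1.42.0, a replicate block, only the compared libraries, and leaving out each library or both libraries of 5-day replicate 3.

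The 10 genes and the other lists were chosen with earlier results of these data known. Named genes were the 10 in every comparison, up to 4 genes of each other list with the smallest p for PD-1 over both ages, every list gene called with age or for the interaction, and the 3 genes most like S100a4, Lgals1 and Anxa6; others were named after their values were seen. The lists of B cell, NK and innate lymphoid, endothelial and stromal, and erythroid markers summed to 10.7 to 80.1, 12.3 to 88.7, 2.92 to 7.16 and 2.27 to 5.85 CPM in PD-1- libraries and to 27.1 to 51.1, 21.0 to 119.9, 2.39 to 13.9 and 2.57 to 3.82 CPM in PD-1+ libraries.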

Additional observations from a re-analysis of the deposited data

Results flagged for a closer look

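The PD-1 difference of Anxa2 was not the same at the 2 ages by the interaction term of the edgeR model: it was 5.03 ± 0.25 at 5 days and 3.39 ± 0.23 at 10 days on the log2 scale, a difference of -1.63 ± 0.31 (adjusted p = 0.0254). The call was lost in 5 fits that left out a single library, among them each of the PD-1+ libraries (edgeR adjusted p from 0.0604 to 0.0833). The group means of Anxa2 were 69.7 and 72.6 CPM in PD-1- cells and 2237 and 755 CPM in PD-1+ cells, at 5 and 10 days.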

How the results depend on the processing

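For PD-1, the contrast on which the 10 genes were chosen, stability of their calls is no support. Calls at a single age were lost for S100a13 (without 5-day PD-1- replicate 2, 5-day PD-1+ replicate 2 or both libraries of 5-day replicate 3, and without replicate 1 of either 10-day population) and for Anxa1 (2.14 at 10 days without 10-day PD-1- replicate 1). For age in PD-1+ cells 135 of 140 values of the 10 genes kept their sign and their side of the threshold. The main counts of genes called were 3936 (PD-1 at 5 days), 3364 (PD-1 at 10 days), 31 (age in PD-1-), 1651 (age in PD-1+) and 244 (interaction). With single libraries or both libraries of 5-day replicate 3 left out they ranged from 2328 (without 5-day PD-1+ replicate 2) to 3951, from 2195 (without 10-day PD-1- replicate 1) to 3527, from 5 (without 10-day PD-1- replicate 2) to 90 (without 5-day PD-1- replicate 3), from 550 (without 5-day PD-1+ replicate 2) to 1839, and from 92 (without 5-day PD-1+ replicate 2) to 282. Age in PD-1+ cells also gave 886 genes without 5-day PD-1+ replicate 3 and 776 without 10-day PD-1+ replicate 1, and PD-1 at 5 days gave 2561 without both libraries of 5-day replicate 3. Age in PD-1- cells gave 180 genes with no filter on low counts (35.6% of them higher, against 54.8%), 75 with DESeq2 (41.3% higher) and 10 with only the compared libraries. The interaction gave 469 genes with no filter. Of the 10 genes, 1 was called for age in PD-1- cells with no filter and 1 with DESeq2, and 0 to 1 with libraries left out. For the interaction 0 to 2 were called with libraries left out. The cause was not tested. Values that changed sign with a library left out, none of them called, ranged for age in PD-1- cells from -1.18 to 0.61 (S100a4), -1.43 to 0.046 (S100a6), -0.36 to 1.76 (S100a11), -0.49 to 2.42 (Anxa1), -0.31 to 0.51 (Anxa2) and -0.19 to 0.030 (Anxa6), for age in PD-1+ cells from -0.25 to 0.32 (S100a6), and for the interaction from -1.31 to 0.81 (S100a11) and -0.14 to 0.47 (S100a13).

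The replicate numbers share no stated animal or batch. Same-numbered libraries correlated at 0.114 (10 days) and 0.0938 (5 days) in their deviations from the group means. With the replicate number as a replicate block, 4399, 4158 and 3563 genes were called for PD-1 over both ages, at 5 days and at 10 days, with all 10 genes among them each time, and 483 for the interaction, with 1 of the 10.

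With 2 libraries a group and 2 to 19 counts for S100a4, S100a6, S100a11, Lgals3 and Anxa1 in the PD-1- libraries, differences among PD-1- libraries were poorly resolved for these genes.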
